A study of Homo sapiens with 16 samples.

Results

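The Krüppel-like factors (KLFs) are a family of DNA-binding transcription factors, and 10 of them are described here through a PMA time course in K562 cells: KLF1, KLF2, KLF3, KLF4, KLF5, KLF6, KLF7, KLF10, KLF11 and KLF13. The 10 genes were taken by name with no cut on their measured values, although earlier results of these data were known when the list was drawn up, and the reads of all transcripts of each gene were summed. They are 10 of the 35019 genes found in the files. All 10 passed the filter on low counts that left 17543 genes for testing, so the counts below cover every member.

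K562 is an established human leukaemia line, here wild type in every group. Cells were grown in medium with serum and treated with 25 nM PMA, an activator of protein kinase C that drives this line toward a megakaryocyte-like state. RNA was taken before treatment (0 h) and at 7 times in PMA, 4 of them within the day of treatment (0.5, 1.5, 3 and 6 h) and the others 24, 48 and 72 h in, with 2 libraries per time point and 16 in all. The 0 h libraries are the only untreated control, so time in PMA and time in culture cannot be told apart. The medium was renewed after 24 and 48 h, so in the 48 and 72 h libraries the medium changes cannot be told apart from them either. The labels do not say whether the 2 libraries of a time point came from separate cultures, so p-values measure only the spread between these libraries.

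KLF proteins bind GC-rich and CACCC-type DNA elements through zinc fingers at their carboxy terminus, and differ in the amino-terminal part that recruits coactivators or corepressors. KLF1, the erythroid Krüppel-like factor, activates globin, haem synthesis and red cell membrane genes, and is known to favour the erythroid over the megakaryocyte fate of their shared progenitor. KLF3 is a repressor that is itself switched on by KLF1 in red cell precursors. KLF6 and KLF10 are known in many cell types as genes that respond quickly to growth factors and other stimuli.

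Of the 10 genes, 8 had an upstream sequence in the RefSeq table (GRCh38.p14), and 4 are shown because the levels below turn on these genes: KLF1, which fell most, and KLF2, KLF6 and KLF13, 3 of the 4 genes that were highest at 6 h. Capitals mark a match to a binding motif. The runs read 5′ to 3′ on the strand of the gene. Those of KLF1 and KLF13 end at the RefSeq start, and that of KLF2 ends where the outermost annotated exon begins. For KLF6 only a short stretch around the match is given, which lies upstream of the RefSeq start but almost wholly inside the annotated gene, whose GENCODE boundary is at 3785281.
KLF1 (chr19:12887202-12887451, minus strand; capitals, GATA site): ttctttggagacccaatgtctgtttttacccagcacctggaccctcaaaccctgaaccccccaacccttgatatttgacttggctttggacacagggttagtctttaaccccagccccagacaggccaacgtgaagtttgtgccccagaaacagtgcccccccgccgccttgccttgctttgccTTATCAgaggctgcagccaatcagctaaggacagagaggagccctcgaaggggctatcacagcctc
KLF2 (chr19:16324576-16324816, plus strand; capitals, EGR site): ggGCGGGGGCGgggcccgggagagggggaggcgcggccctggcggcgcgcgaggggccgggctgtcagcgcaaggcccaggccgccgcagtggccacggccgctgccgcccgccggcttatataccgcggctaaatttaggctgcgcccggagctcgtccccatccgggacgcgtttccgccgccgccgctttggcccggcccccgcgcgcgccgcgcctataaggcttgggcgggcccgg
KLF6 (chr10:3785256-3785284, minus strand; capitals, EGR site): ggggagccagGCGGGGGCGgagggggagg
KLF13 (chr15:31326585-31326834, plus strand; capitals, CACCC box): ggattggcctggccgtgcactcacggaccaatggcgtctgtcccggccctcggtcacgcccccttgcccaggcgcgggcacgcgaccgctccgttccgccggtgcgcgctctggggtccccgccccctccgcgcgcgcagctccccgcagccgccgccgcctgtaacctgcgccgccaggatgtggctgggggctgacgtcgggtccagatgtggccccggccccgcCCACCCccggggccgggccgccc

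The 250 bases upstream of each RefSeq start were searched on both strands for 7 motifs. The motifs were the CACCC box CCACCC, the EGR site GCGNGGGCG, the AP-1 site TGANTCA, the cyclic AMP response element TGACGTCA, the GATA site as AGATAA or TGATAA, the TATA box TATAAA, and the CArG box of serum response factor. KLF1 held a GATA site at position −66 from its start, a motif found in 14.6% of the 35116 RefSeq upstream regions of the same length outside chromosome 8. EGR sites, found in 8.41% of all such regions, lay at −248 in KLF2, −65 in KLF6 and −189 in KLF4. The 250 bases searched were 80% GC for KLF2, 72.4% for KLF6 and 69.2% for KLF4. The 8.41% covers regions of any GC content, so it cannot show whether these sites are unusual for regions this rich in GC. The other shares given here are likewise not matched for GC content. KLF13 held a CACCC box at −23 (31.3% of all regions) and KLF7 a CArG box (1.16%). Another start of KLF7 had CACCC boxes, KLF11 had a cyclic AMP response element (1.65% of all regions) and KLF5 a TATA box (10.7%). These are matches of letters in a window, and binding was not measured.

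KLF1 was nearly lost within 6 h. KLF1 (ENSG00000105610, GRCh38 chromosome 19, 12884422 to 12887199) had 43.8 and 61.5 CPM (reads scaled to a common, normalised library size) in the 0 h libraries, replicate 1 first. It had 38.1 and 38.8 CPM after 0.5 h, 23.7 and 27.6 after 1.5 h, 4.17 and 4.11 after 3 h, and 1.37 and 1.38 after 6 h. It then held 1.32 and 1.68 CPM after 24 h, 2.87 and 2.34 after 48 h, and 2.90 and 2.84 after 72 h. Both libraries of every treated time point lay under both 0 h libraries, and the 6 h mean was 38.3-fold under the 0 h mean.

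The fall of KLF1 was gradual at first and steepest between 1.5 and 3 h. Its log2 fold change against 0 h was −1.04 after 1.5 h (SE 0.15, edgeR adjusted p 0.000591), −3.67 after 3 h (SE 0.17, edgeR adjusted p 1.81e-09) and −5.26 after 6 h (SE 0.20, edgeR adjusted p 7.68e-11). From 1.5 to 3 h the step was −2.63 on the log2 scale (SE 0.17, edgeR adjusted p 8.40e-08), and from 3 to 6 h it was −1.59 (SE 0.21, edgeR adjusted p 3.41e-05). KLF1 rose again by 0.77 from 24 to 48 h (SE 0.20, edgeR adjusted p 0.0197), and its 72 h level was 5.45% of the 0 h level. That late rise lost its call without 24 h replicate 1 (0.62, adjusted p 0.129) or without 48 h replicate 1 (0.62, adjusted p 0.171).

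At 0.5 h the level of KLF1 was not called different (log2 fold change −0.45, SE 0.15, edgeR adjusted p 0.180). KLF1 is a GC-rich transcript (65.7% GC), and the difference between the 0 h libraries went with GC content across 9975 genes (r = −0.73 for replicate 1 minus replicate 2). With the GC trend of each library removed the 0.5 h value was 0.04, and without 0 h replicate 1 it was −0.67 (adjusted p 0.0103). With the trend removed the 1.5 h value was −0.62, and this fall and those from 3 h on kept their calls.

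**Figure D1:**
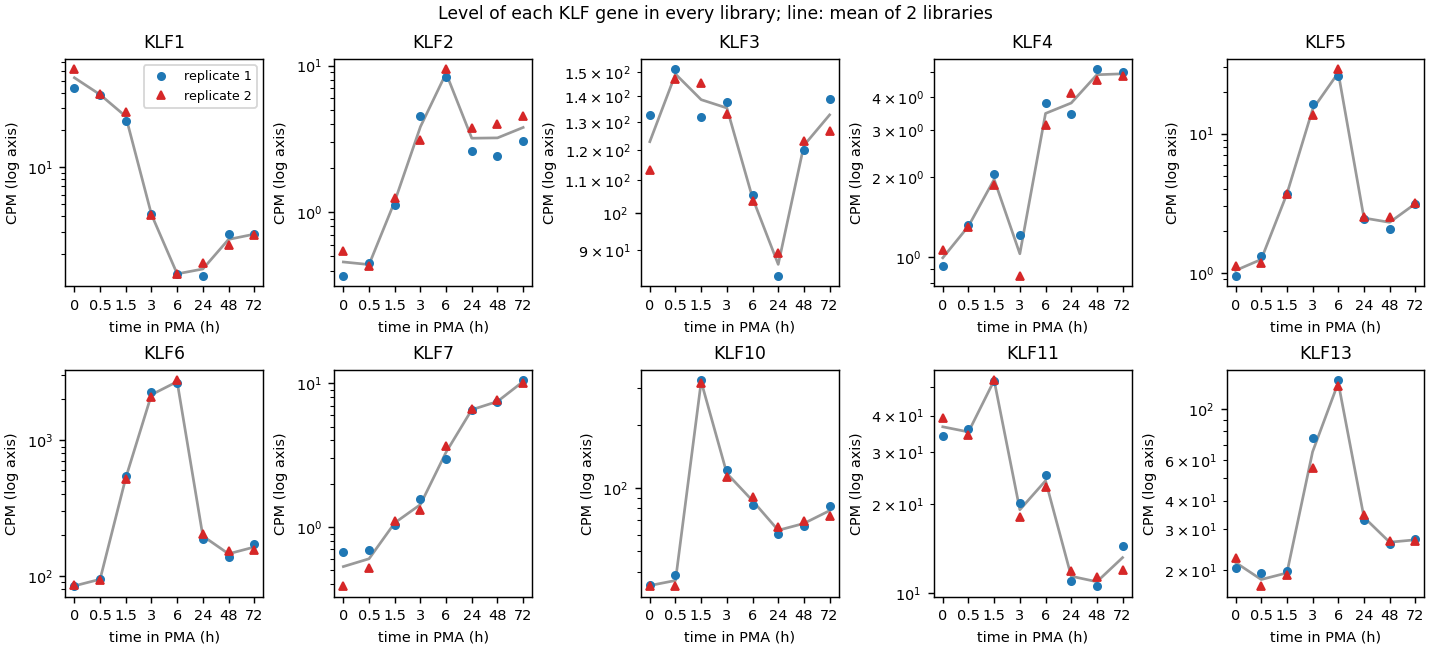
Level of each of the 10 KLF genes in every library, in CPM on a log axis whose range differs between panels, against time in PMA in hours (time points evenly spaced). Circles are replicate 1, triangles are replicate 2 and the line joins the means of 2 libraries: KLF1 goes from 52.6 to 1.37 CPM between 0 and 6 h, while KLF6 goes from 84.9 to 2701.

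KLF6 became the dominant KLF transcript as KLF1 fell. KLF6 (ENSG00000067082, chromosome 10, 3775996 to 3785281) held 84.1 and 85.6 CPM at 0 h, 95.3 and 94.4 after 0.5 h, 542 and 517 after 1.5 h, 2249 and 2081 after 3 h, and 2624 and 2779 after 6 h. By 24 h it was back at 189 and 206 CPM, with 139 and 153 after 48 h and 172 and 156 after 72 h. The replicates lay close together at every time, and the 3 and 6 h libraries stood far above all others.

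The rise of KLF6 was already large at 1.5 h (log2 fold change 2.64, SE 0.10, edgeR adjusted p 8.35e-10). It reached 4.67 after 3 h (SE 0.11, edgeR adjusted p 2.14e-12) and 4.99 after 6 h (SE 0.11, edgeR adjusted p 5.81e-13). In abundance per length (TPM) KLF6 ranked 4682 of the 17543 tested genes at 0 h and 159 after 6 h. Between 6 and 24 h it dropped by 3.77 on the log2 scale (SE 0.10, edgeR adjusted p 2.25e-11). At 72 h 3.02% of the 6 h rise was left, still higher than at 0 h (0.95, SE 0.09, edgeR adjusted p 1.15e-06).

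KLF5, a factor best known for proliferation of epithelial cells, rose and fell at the same times at a far lower level. KLF5 (ENSG00000102554, chromosome 13, 73054976 to 73077542) had 0.952 and 1.13 CPM at 0 h (31 and 35 reads), 1.32 and 1.18 after 0.5 h, 3.70 and 3.69 after 1.5 h, 16.3 and 13.5 after 3 h, and 25.8 and 29.0 after 6 h. From 24 h on it held 2.07 to 3.16 CPM in 6 libraries, all above both 0 h libraries. Its log2 fold change was 1.83 after 1.5 h (SE 0.18, edgeR adjusted p 1.95e-05), 4.72 after 6 h (SE 0.18, edgeR adjusted p 7.98e-11) and 1.59 after 72 h (SE 0.18, edgeR adjusted p 4.41e-06). Among the 11260 genes whose mean was 5 CPM or more, KLF5 was the gene whose profile over the 16 libraries was most like that of KLF6, with a root-mean-square difference of 0.50 in centred log2 CPM against a spread of 1.84 for KLF6 itself.

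KLF13, which recruits the corepressor SIN3A and is known from T lymphocytes, rose later than KLF5 and KLF6. KLF13 (ENSG00000169926, chromosome 15, 31326855 to 31435665) had 20.4 and 22.6 CPM at 0 h, 19.3 and 16.9 after 0.5 h, and 19.7 and 19.0 after 1.5 h. It then had 75.1 and 55.3 CPM after 3 h, 134 and 127 after 6 h, 33.0 and 34.6 after 24 h, 25.9 and 26.8 after 48 h, and 27.2 and 26.7 after 72 h. The 1.5 h level was not called different from 0 h (log2 fold change −0.15, SE 0.13, edgeR adjusted p 0.446), whereas the value was 1.60 after 3 h (SE 0.13, edgeR adjusted p 2.96e-07) and 2.60 after 6 h (SE 0.13, edgeR adjusted p 1.08e-09). The 72 h value of 0.33 passed narrowly (SE 0.13, edgeR adjusted p 0.0386), and not without 0 h replicate 1 (0.26, adjusted p 0.171).

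KLF2, a factor known from quiescent T cells and the endothelium under flow, rose from a very low level. KLF2 (ENSG00000127528, chromosome 19, 16324817 to 16327874) had 0.368 and 0.547 CPM at 0 h (12 and 17 reads), 0.449 and 0.430 after 0.5 h, and 1.12 and 1.25 after 1.5 h. It had 4.52 and 3.13 CPM after 3 h, 8.32 and 9.42 after 6 h, 2.62 and 3.78 after 24 h, 2.41 and 4.02 after 48 h, and 3.04 and 4.53 after 72 h. Every library from 1.5 h on was above both 0 h libraries, and replicate 2 was the higher at all times from 6 h on.

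The log2 fold change of KLF2 was 1.37 after 1.5 h (SE 0.38, edgeR adjusted p 0.0264), 4.27 after 6 h (SE 0.35, edgeR adjusted p 1.61e-07) and 3.04 after 72 h (SE 0.35, edgeR adjusted p 5.37e-06). Of the rise to 6 h, KLF2 kept 39.6% at 72 h, against 7.97% for KLF5, 5.04% for KLF13 and 3.02% for KLF6. The 1.5 h call was lost without any 1 of the 0 or 1.5 h libraries, with values of 1.11 to 1.67.

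KLF10, known as an early gene induced by transforming growth factor beta, peaked first. KLF10 (ENSG00000155090, chromosome 8, 102648779 to 102655902) had 34.6 and 34.0 CPM at 0 h, 38.4 and 34.0 after 0.5 h, and 327 and 316 after 1.5 h. It was down to 121 and 113 CPM after 3 h and 83.0 and 91.0 after 6 h, then held 60.6 and 65.1 after 24 h, 66.0 and 69.5 after 48 h, and 82.4 and 73.7 after 72 h. The 1.5 h libraries were far above any other, and all libraries from 1.5 h on were above both 0 h libraries.

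The log2 fold change of KLF10 was 3.23 after 1.5 h (SE 0.10, edgeR adjusted p 1.03e-10), the largest value of any member at that time. It dropped by 1.45 from 1.5 to 3 h (SE 0.09, edgeR adjusted p 7.70e-08) while KLF6 went up by 2.03 in the same step (SE 0.10, edgeR adjusted p 4.07e-09). Against 0 h it was still higher after 24 h (0.87, SE 0.09, edgeR adjusted p 2.87e-06) and after 72 h (1.19, SE 0.09, edgeR adjusted p 1.21e-07).

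KLF11, the closest relative of KLF10 and like it a partner of SIN3A, also had its maximum at 1.5 h but then fell under its starting level. KLF11 (ENSG00000172059, chromosome 2, 10042849 to 10054836) had 34.1 and 39.2 CPM at 0 h, 36.0 and 34.4 after 0.5 h, 52.5 and 52.9 after 1.5 h, 20.2 and 18.1 after 3 h, and 25.2 and 22.9 after 6 h. Its late levels were 10.9 and 11.8 CPM after 24 h, 10.5 and 11.3 after 48 h, and 14.4 and 12.0 after 72 h. Its log2 fold change was 0.52 after 1.5 h (SE 0.11, edgeR adjusted p 0.00704), −0.93 after 3 h (SE 0.11, edgeR adjusted p 1.81e-05) and −1.75 after 48 h (SE 0.12, edgeR adjusted p 2.41e-08). Without 1.5 h replicate 2 the early rise was also 0.52, with an adjusted p of 0.0531. Exons of KLF11 overlap AC104794.4 on the other strand, a gene that is not among those found in the files. Whether reads were counted by strand is not stated, so reads of AC104794.4 may have been counted for KLF11.

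KLF7, known for axon growth in neurons, and KLF4, known from monocytes, epithelium and reprogramming to pluripotency, had their highest levels at the end of the course. KLF7 (ENSG00000118263, chromosome 2, 207074137 to 207167267) had 0.675 and 0.386 CPM at 0 h (22 and 12 reads), 0.687 and 0.516 after 0.5 h, 1.04 and 1.1 after 1.5 h, 1.56 and 1.30 after 3 h, and 2.99 and 3.65 after 6 h. It went on to 6.49 and 6.60 CPM after 24 h, 7.35 and 7.59 after 48 h, and 10.5 and 10.0 after 72 h. Unlike the genes with a peak at 6 h, KLF7 still rose between 6 and 24 h, by 0.98 on the log2 scale (SE 0.20, edgeR adjusted p 0.000887).

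Against 0 h the log2 fold change of KLF7 was 2.63 after 6 h (SE 0.24, edgeR adjusted p 5.34e-07) and 4.26 after 72 h (SE 0.24, edgeR adjusted p 3.08e-09). The share of KLF7 reads assigned to the 8365 nt transcript KLF7-201 varied from 0 to 85.2% between libraries, and its part in what follows was not tested. With counts derived from TPM and scaled by gene length, the value was 1.70 after 6 h and 3.04 after 72 h. On that scale the 1.5 and 3 h values changed direction, from 1.00 to −0.08 and from 1.43 to −0.46, and the rise between 6 and 24 h was not called (0.37, adjusted p 0.421).

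KLF4 (ENSG00000136826, chromosome 9, 107484852 to 107490482) had 0.921 and 1.06 CPM at 0 h (30 and 33 reads), 1.32 and 1.29 after 0.5 h, 2.05 and 1.87 after 1.5 h, and 1.21 and 0.848 after 3 h. It had 3.80 and 3.15 CPM after 6 h, 3.45 and 4.15 after 24 h, 5.09 and 4.63 after 48 h, and 4.99 and 4.81 after 72 h. Its course had an early maximum at 1.5 h, 3 h levels on either side of the 0 h libraries, and a second rise by 6 h that lasted. The log2 fold change was 0.98 after 1.5 h (SE 0.22, edgeR adjusted p 0.00885) and 0.06 after 3 h (SE 0.23, edgeR adjusted p 0.867), and the step of −0.92 between them was called (SE 0.22, edgeR adjusted p 0.00582). At 72 h it was 2.30 (SE 0.21, edgeR adjusted p 4.94e-07). The call at 1.5 h was lost without 1.5 h replicate 1 (0.91, adjusted p 0.0639), and that of the step to 3 h without 3 h replicate 2 (−0.70, adjusted p 0.0530).

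KLF3 varied least. KLF3 (ENSG00000109787, chromosome 4, 38664196 to 38701042) had 133 and 113 CPM at 0 h, 151 and 147 after 0.5 h, 132 and 145 after 1.5 h, 138 and 133 after 3 h, and 105 and 104 after 6 h. It had 83.6 and 89.2 CPM after 24 h, its lowest level, then 120.0 and 123 after 48 h and 139 and 126 after 72 h. The highest of its means was 1.73-fold above the lowest. At 24 h the log2 fold change was −0.51 (SE 0.09, edgeR adjusted p 0.000375), and from 24 to 48 h KLF3 rose by 0.49 (SE 0.09, edgeR adjusted p 0.00301).

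The 6 h value of KLF3 (−0.23, SE 0.09) passed narrowly with an edgeR adjusted p of 0.0465, and DESeq2 gave an adjusted p of 0.0747. Without 0 h replicate 1 the value was −0.11, and without either 6 h library the call was also lost. At 48 and 72 h its values were −0.02 and 0.11, and neither was called. The antisense gene KLF3-AS1 overlaps exons of KLF3 and is likewise not among the genes found in the files, with the same limit on strand as for KLF11.

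Counted over the 10 members, none was called at 0.5 h by the edgeR test or by DESeq2, where 0.171% of all tested genes were called by edgeR. At an unadjusted p under 0.05 there were 2, KLF1 and KLF3, and these were also the 2 called without 0 h replicate 1. At 1.5 h 7 members were higher and 1 lower, where 17.1% of all genes were called, 9.07% higher and 8.06% lower. At 3 h 6 were higher and 2 lower, against 42.0% of all genes (21.5% higher, 20.5% lower). At 6 h 7 were higher and 3 lower, against 57.2% (27.8% higher, 29.4% lower), and the same numbers held at 24 h, against 58.3% (31.7% higher, 26.6% lower). At 48 h 6 were higher and 2 lower, against 54.3% (30.2% higher, 24.0% lower), and at 72 h 7 were higher and 2 lower, against 58.7% (31.7% higher, 27.0% lower). Over the whole course all 10 members changed by the edgeR F-test of any difference, against 82.9% of all genes, so a call at some time was common among genes in general.

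The 1.5 h count of 8 called members was 5 without either 1.5 h library. The median log2 fold change of the 10 members was 0.99 after 1.5 h, 1.51 after 3 h, 2.20 after 6 h, 1.05 after 24 h, 0.88 after 48 h and 1.07 after 72 h. Over all tested genes the medians of these comparisons lay between −0.03 and 0.00. When libraries were scaled to total counts without TMM factors, the medians of all genes shifted to between −0.35 after 6 h and −0.12 after 1.5 h, and no called member changed direction. Every comparison with 0 h used the same 2 untreated libraries.

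**Figure D2:**
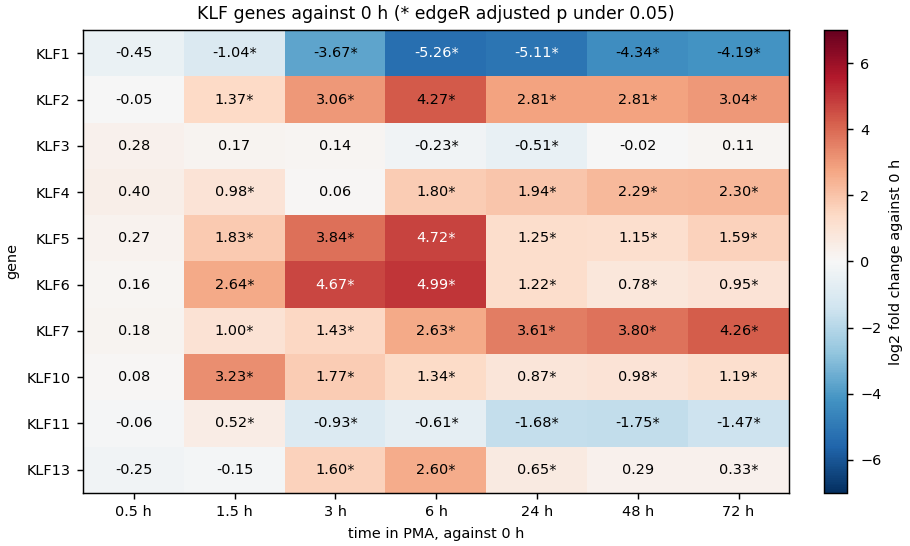
Log2 fold change against 0 h of each KLF gene (rows) at each time in PMA in hours (columns), red where higher and blue where lower than at 0 h, with an asterisk where the edgeR adjusted p was under 0.05. KLF1 is the only member lower at every time from 1.5 h on, KLF10 has its largest value (3.23) at 1.5 h, KLF2, KLF5, KLF6 and KLF13 after 6 h, and KLF4 and KLF7 after 72 h.

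Steps between neighbouring time points placed most changes before 24 h. From 0.5 to 1.5 h 6 of the 10 members moved (5 higher and 1 lower), with 5.78% of all genes called, 4.12% higher and 1.66% lower. That count was 3 without 1.5 h replicate 1 or without either 0.5 h library. The next step, to 3 h, moved 8 members (4 in each direction), with 25.1% of all genes called, 13.0% higher and 12.2% lower. All 10 moved between 3 and 6 h (7 higher and 3 lower), with 41.2% called, 19.1% higher and 22.2% lower. The called rise of KLF11 (0.33, edgeR adjusted p 0.0359), lost its call in 17 of 28 other fits, among them DESeq2 (adjusted p 0.0625). Between 6 and 24 h 8 moved (1 higher and 7 lower), with 56.6% called, 30.8% higher and 25.8% lower. Only 3 moved between 24 and 48 h, KLF1 and KLF3 higher and KLF6 lower, with 15.0% of all genes called, 8.89% higher and 6.13% lower, and without 48 h replicate 1 the count was 1. From 48 to 72 h no member was called by edgeR or DESeq2, with 4 at an unadjusted p under 0.05 in edgeR and 1.47% of all genes called. Some steps were small, and when a change of over 1.5-fold was asked for, 5 of the 10 members passed from 3 to 6 h.

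Levels of different genes were compared per length, in TPM. Before treatment KLF1 (48.1 and 61.1 TPM) and KLF3 (49.8 and 50.8) were at the top with ranges that overlapped, followed by KLF6 (34.5 to 35.7), KLF10 (17.3 to 19.3), KLF11 (14.6 to 16.4) and KLF13 (5.13 to 5.17). KLF5, KLF7, KLF4 and KLF2 were all under 1 TPM, and the ranges of the first 3 of these overlapped. At 6 h KLF6 stood at 819 to 887 TPM, ahead of KLF10 at 36.3 to 37.0, KLF3 at 32.7 to 34.0, KLF13 at 21.5 to 26.1 and KLF5 at 12.9 to 13.4. KLF1 was then the lowest of the 10 by its mean, at 1.09 to 1.20 TPM, in a range that overlapped that of KLF7.

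The summed level of the 10 genes was 181 TPM ± 9.11 (SD, n = 2) at 0 h, 978 ± 54.1 after 6 h and 190 ± 4.21 after 72 h. KLF1 made up 30.0% of that sum at 0 h, 0.117% at 6 h and 1.65% at 72 h. KLF6 made up 19.4% at 0 h, 87.3% after 6 h and 35.9% after 72 h. In TPM, to which no TMM factors were applied, the summed level at 72 h was thus close to that at 0 h. With libraries scaled to total counts, the median log2 fold change of all genes at 72 h was −0.19, against −0.03 with TMM factors. The closeness of the 2 sums therefore depends on the scale. The share of KLF1 was smaller at 72 h, and those of KLF6 and of KLF10, which went from 10.1 to 22.7%, were larger. In RNA from a whole culture, a fall in 1 gene's reads from fewer cells that make it and from less RNA per cell cannot be told apart.

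**Figure D3:**
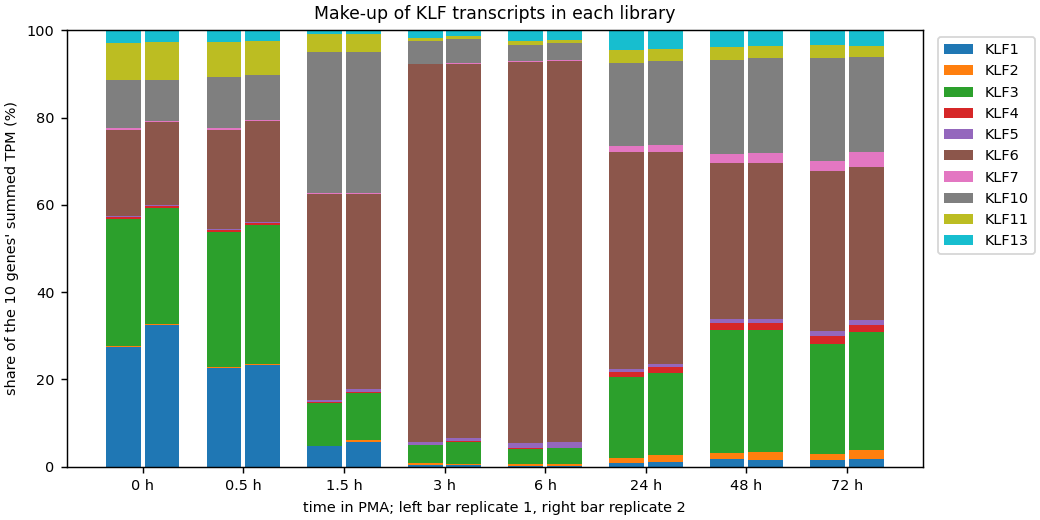
Share of each KLF gene in the summed TPM of the 10 genes, in percent, for each library (left bar replicate 1, right bar replicate 2) at each time in PMA. KLF1 takes 27.5 and 32.5% of the 0 h libraries, and KLF6 a mean of 86.2% at 3 h and 87.3% at 6 h.

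Transcript shares within a gene were estimates with uneven precision. KLF1 had a single annotated transcript, and KLF13-201 and KLF3-201 held 96.6 to 99.5% and 87.1 to 97.6% of their gene's reads. For KLF6, the 4590 nt transcript was the main form both at 0 h (86.1 and 72.6%) and at 6 h (92.1 and 92.3%). The 4537 nt transcript held 9.26 and 18.7% at 0 h and 1.13 and 1.71% at 6 h. Its estimated reads still rose, from 254 and 498 at 0 h to 697 and 1339 at 6 h. The share of this transcript also differed between replicates, as at 24 h (2.22 and 8.27%). Within KLF4 and KLF11 the shares were too far apart between replicates to compare times, with KLF4-201 at 0 to 100% and KLF11-201 at 29.4 to 98.1% over the libraries.

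Genes with profiles most like each member were listed by the smallest root-mean-square difference in centred log2 CPM over the 16 libraries, as a description. For KLF1 these were STC2 (0.31), INHBE (0.56) and MNX1 (0.58), and for KLF3 they were BUB1 (0.08), SLC38A1 (0.11) and FNDC3B (0.12). Next to KLF13 came FARP2 (0.17), FHL2 (0.19) and CRISPLD2 (0.22), next to KLF11 IMPG2 (0.24), FAR2P1 (0.28) and GAB2 (0.28), and next to KLF10 IQCN (0.51), MAFF (0.51) and ATP6V1FNB (0.56). For KLF5 they were ZNF165 (0.40), SLC9A2 (0.46) and RHOB (0.47). The spread of the member itself on the same scale was 2.00 for KLF1, 0.24 for KLF3 and 0.92 for KLF13. It was 0.80 for KLF11, 0.96 for KLF10 and 1.52 for KLF5, so the differences cannot be compared between members as they stand. KLF2, KLF4 and KLF7 were under a mean of 5 CPM and were not ranked.

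Listed targets of KLF1 were mostly called lower from 6 h on, later than KLF1 itself, and any part of KLF1 in this was not tested. Of the 12 erythroid markers described below, 6 were likewise lower at 6 h and all 12 at 24 h. Of 20 listed target genes 19 were tested, since HBB, the adult beta-globin gene that K562 cells are known not to express, had at most 4 reads in any library. None was called at 0.5 h, 3 were lower at 1.5 h, and 4 were higher and 3 lower at 3 h, when KLF1 had fallen by 3.67 on the log2 scale. At 6 h 2 were higher and 12 lower, at 24 h 3 were higher and 16 lower, and at both 48 and 72 h 3 were higher and 12 lower. Over all tested genes the share called lower was 8.06% after 1.5 h and 20.5% after 3 h. It was 29.4% after 6 h, 26.6% after 24 h, 24.0% after 48 h and 27.0% after 72 h. The share called higher was 9.07% after 1.5 h, 21.5% after 3 h and 27.8% after 6 h, and 30.2 to 31.7% from 24 h on. The median log2 fold change of the list was −0.04 after 3 h, −0.61 after 6 h, −1.14 after 24 h and −0.97 after 72 h, against medians of −0.03 to 0.00 over all genes.

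Among targets with a mean over 5 CPM, the largest change was a rise. CD44, an adhesion receptor for hyaluronan whose gene KLF1 is known to activate in red cell precursors, had 14.8 ± 0.608 CPM (SD, n = 2) at 0 h and rose to 4712 ± 201 after 48 h (log2 fold change 8.32, SE 0.14, edgeR adjusted p 8.64e-14). CD44 was also the listed target with the highest mean TPM (1542). The other genes higher at 24 h were DMTN, a protein of the red cell membrane skeleton (0.80, SE 0.15, edgeR adjusted p 0.000575), and ZBTB7A, a repressor of fetal globin (1.00, SE 0.15, edgeR adjusted p 6.75e-05).

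Several listed genes are named here after their values were seen. ALAS2, the first enzyme of haem synthesis in red cells, had 28.4 ± 3.22 CPM at 0 h and 18.6 ± 0.811 after 6 h, and 1.79 ± 0.0683 after 24 h, so that the log2 fold change there was −3.99 (SE 0.15, edgeR adjusted p 4.51e-11). BLVRB, biliverdin reductase B, went from 188 ± 41.7 CPM at 0 h to 25.0 ± 0.756 after 24 h (−2.90, SE 0.15, edgeR adjusted p 1.32e-09). E2F2, a cell cycle regulator that KLF1 activates, fell early, by 2.1 after 3 h (SE 0.10, edgeR adjusted p 2.65e-09). ANK1, the ankyrin of the red cell membrane, fell by 0.37 after 24 h (SE 0.10, edgeR adjusted p 0.00603) and was not called at 72 h (−0.20, SE 0.10, edgeR adjusted p 0.104).

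**Figure D4:**
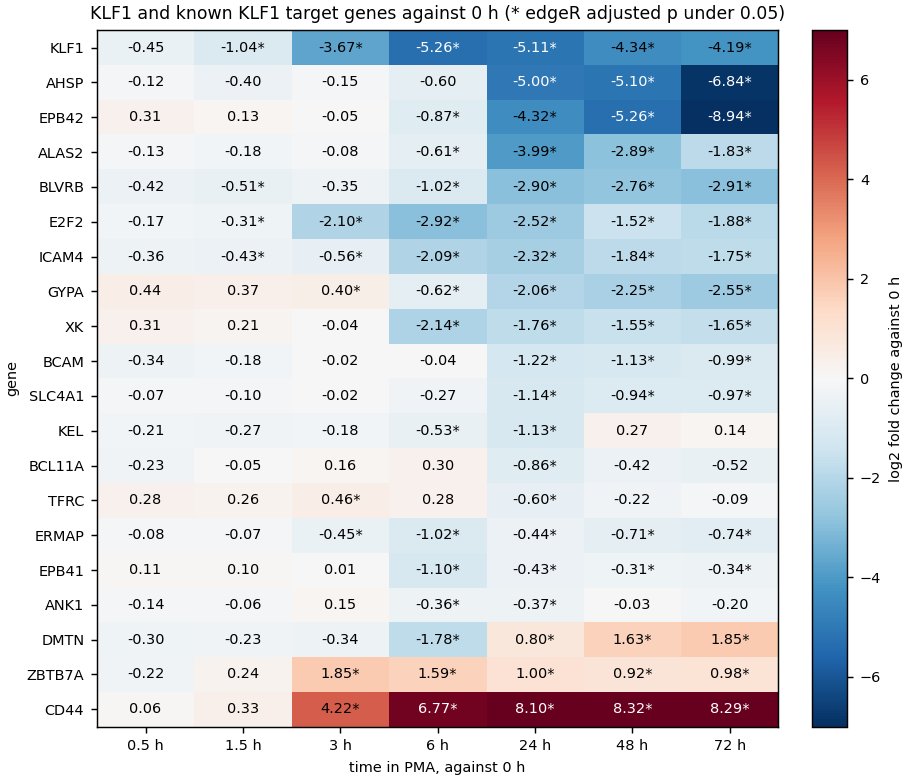
Log2 fold change against 0 h of KLF1 (top row) and the 19 tested genes of the KLF1 target list (rows ordered by the 24 h value) at each time in PMA in hours (columns), with an asterisk where the edgeR adjusted p was under 0.05. KLF1 is at −3.67 by 3 h, when most target rows are near 0, and 16 targets are lower and 3 higher at 24 h. Any part of KLF1 in the target changes was not tested. The 72 h value of EPB42, with 0 reads there, depends on the prior count and is no measured size.

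Cell type markers moved over the same hours, in which many genes were called. Of all tested genes 27.8% were higher and 29.4% lower at 6 h, and 31.7% and 26.6% at 24 h. The shares were 30.2% and 24.0% at 48 h, and 31.7% and 27.0% at 72 h. The summed level of 12 erythroid markers, all present, was 2293 CPM at 0 h, 2006 after 6 h, 1047 after 24 h and 1578 after 72 h, with all 12 lower at 24 h and HBZ, embryonic zeta-globin, changed most (−4.34, SE 0.35, edgeR adjusted p 1.39e-07). HBG2, fetal gamma-globin, had the highest mean TPM of these markers (2619.9 over all libraries), with reads that may be shared with its near-identical copy HBG1. Of 12 megakaryocyte markers 7 were tested, and their list's summed level went from 87.1 CPM at 0 h to 271 after 6 h and 5796 after 72 h, mostly from THBS1 (4595 ± 456 CPM, SD, n = 2) and ITGB3 (1092 ± 118). At both 6 and 24 h 4 of the 7 were higher and 2 lower, at 48 h 5 were higher and 1 lower, and at 72 h 5 were higher and 0 lower. The lower ones at 24 h were ITGA2B, the platelet integrin alpha-IIb (−2.14, SE 0.11, edgeR adjusted p 1.94e-09), and TUBB1, a platelet beta-tubulin (−0.77, SE 0.18, edgeR adjusted p 0.00232). The defining platelet genes GP9, GP1BA, PF4 and SELP had at most 5 reads in any library. Of 9 lymphocyte and monocyte markers 6 were tested, and the list summed to 49.5 to 91.2 CPM, mostly LYZ, with CD3E, MS4A1 and S100A8 near 0. Of these 6, 0 were higher and 2 lower at 6 h, and 3 were higher and 2 lower at each of 24, 48 and 72 h. Among those with a mean over 5 CPM CD3D, a subunit of the T cell receptor complex, changed most, from 7.76 ± 1.59 CPM at 0 h to 16.8 ± 0.478 after 72 h (1.12, SE 0.16, edgeR adjusted p 3.40e-05). Their part in the KLF changes was not tested.

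GATA1, which is known to activate KLF1 and is itself an erythroid and megakaryocyte factor, was chosen with its values in view, because of the GATA site upstream of KLF1. It had 131 ± 33.8 CPM (SD, n = 2) at 0 h and fell to 54.7 ± 12.1 after 3 h and 9.64 ± 0.482 after 6 h (log2 fold change −3.77, SE 0.18, edgeR adjusted p 7.03e-10). By 48 h GATA1 was at 136 ± 4.45 CPM and not called different from 0 h (0.05, SE 0.15, edgeR adjusted p 0.811). KLF1 was still at −4.34 at that time, and any part of GATA1 in the KLF1 change was not tested.

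Targets named for KLF2 and KLF4 did not move as 1 group. Of 8 listed genes 6 were tested. At 6 h 2 were higher and 3 lower, where 57.2% of all genes were called, and at 72 h 3 were higher and 1 lower, where 58.7% were. CDKN1A, a cell cycle inhibitor that KLF4 activates, had the largest change, from 13.6 ± 1.64 CPM (SD, n = 2) at 0 h to 501 ± 109.6 after 3 h (log2 fold change 5.20, SE 0.17, edgeR adjusted p 4.68e-11). KLF4 itself was called higher at 1.5 h and not called different from 0 h at 3 h. Any link between CDKN1A and KLF4 was not tested. THBD, thrombomodulin, rose by 4.35 after 24 h (SE 0.30, edgeR adjusted p 3.00e-08), while ASS1, argininosuccinate synthase, fell by 3.56 (SE 0.15, edgeR adjusted p 2.63e-10) and NOS3, the endothelial nitric oxide synthase, fell by 1.78 after 6 h (SE 0.18, edgeR adjusted p 1.00e-06).

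Of 12 cofactors that bind or modify KLF proteins, 7 were higher and 2 lower at 6 h, with a median log2 fold change of 0.31. Of all tested genes 27.8% were higher and 29.4% lower at that time. The cofactor median was 0.24 after 24 h, 0.06 after 48 h and 0.07 after 72 h. At 72 h 5 cofactors were higher and 4 lower, against 31.7% and 27.0% of all genes. EP300, a histone acetyltransferase that acetylates KLF1, changed most, from 139 ± 10.1 CPM (SD, n = 2) at 0 h to 318 ± 15.5 after 6 h (1.19, SE 0.08, edgeR adjusted p 3.34e-08). HDAC2, a histone deacetylase, had the highest mean TPM of the cofactors (131.5).

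Of the other 8 KLF genes 7 were tested, and KLF18 had at most 2 reads. KLF16, a repressor related to KLF13, had the highest level of these (23.2 TPM by the mean of all libraries) and rose at 6 h from 39.7 ± 11.8 to 76.0 ± 7.94 CPM (SD, n = 2; log2 fold change 0.94, SE 0.22, edgeR adjusted p 0.00216). KLF9, KLF12, KLF14 and KLF15 were the others called at 6 h. KLF15 went from 3.23 ± 0.664 CPM at 0 h to 0.458 ± 0.197 after 6 h and back to 3.18 ± 0.0291 after 24 h. KLF12 went from 0.0314 CPM at 0 h to 2.93 ± 0.347 after 72 h, and KLF14 was at 0 reads in both 0 h libraries and at most 0.655 CPM in any time point's mean.

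The SP factors share the zinc finger type of the KLF proteins, and 8 of the 9 were tested. SP6, known from tooth and limb development, changed most, from 12.9 ± 0.257 CPM (SD, n = 2) at 0 h to 285 ± 2.39 after 6 h and 543 ± 9.45 after 48 h (log2 fold change 5.39, SE 0.16, edgeR adjusted p 6.14e-12). SP6 also had the highest mean TPM of the SP genes, at 95.2. At 6 h 5 SP genes were higher and 2 lower, and at 72 h 3 were higher and 3 lower. The shares of all genes called were 57.2% and 58.7% at these times.

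**Figure D5:**
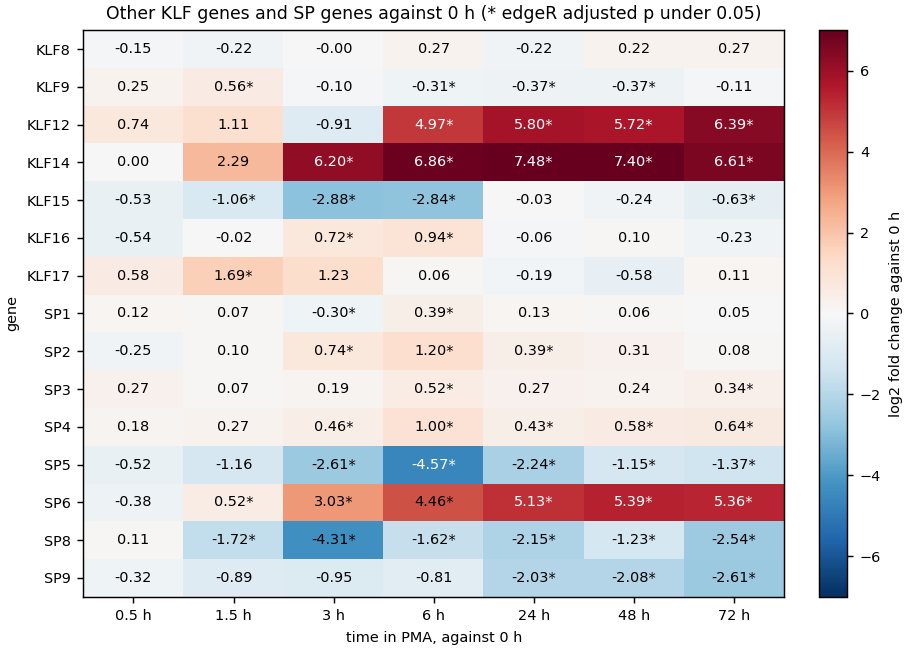
Log2 fold change against 0 h of the 7 other tested KLF genes and the 8 tested SP genes (rows) at each time in PMA in hours (columns), with an asterisk where the edgeR adjusted p was under 0.05. SP6 is higher from 1.5 h on and reaches 5.39 after 48 h; values of KLF14, at 0 reads in both 0 h libraries, and of KLF12, at about 1 read per 0 h library, depend on the prior count and are no measured sizes.

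The libraries held 27285773 to 54056289 estimated reads, with 1 read or more in 19600 to 21056 genes. The floor, 3 reads, was 0.0623 to 0.128 CPM depending on the library, and every member had at least 12 reads in every library. The median gap between length and effective length of long transcripts was larger in replicate 2 (229 to 248 nt) than in replicate 1 (210 to 221 nt). The exception was 0 h, where replicate 2 had 199 nt. Fragment length itself was not given.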

How the data were processed

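RNA sequencing of K562 cells was analysed from 16 deposited tables, 1 per library, each listing the same 177456 Ensembl transcripts. The authors trimmed reads with Trim Galore 0.4.3 and quantified transcripts with Salmon, per the submitters' processing notes, whose Salmon version, bias correction and use of strand are not given in the sources used here. Per the file headers, the deposited values are estimated counts of reads per transcript, which are not normalized and can be fractional, and TPM, which scale each transcript's reads by its effective length and by the library's total.

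Transcripts were matched to GENCODE release 29 (GRCh38) by identifier, 166986 (94.1%) in 35019 genes, and the unmatched ones, 3.05 to 3.79% of a library's reads, were left out. Estimated counts were summed per gene and rounded. All 16 libraries were fitted together by time point with edgeR 4.0.16 (R 4.3.3, limma 3.58.1): default low-count filter (17543 genes), TMM factors of 0.854 to 1.14, and quasi-likelihood F-tests, two-sided, of 7 time points against 0 h, 6 neighbouring steps and any difference. Calls were made at a Benjamini-Hochberg adjusted p under 0.05 over all genes within each comparison. The spread between replicates common to all genes (biological coefficient of variation) was 0.123, on 8 residual degrees of freedom per gene and a prior worth 5.29, and fold changes used a prior count of 0.125. An exact permutation test of 2 against 2 libraries cannot reach 0.05. CPM values are reads relative to the TMM-scaled total, errors are SD over 2 libraries, and the floor of 3 reads covers counting error only.

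The 10 members and the gene lists were chosen with earlier results of these data known. All members are named. From each list the text names the called gene with the largest change among those with a mean of at least 5 CPM and the gene with the highest mean TPM, and calls of a list may be named where it has at most 5. The test was run on simulated counts, drawn independently for each library with no replicate or GC effect. That run does not show how the test behaves where such effects are present. Alternatives were other size factors, total-count scaling, DESeq2 1.42.0, other low-count filters, counts from TPM scaled by length, GC trend removal, a replicate block, the 2 time points alone, a 1.5-fold threshold, an adjusted p under 0.01, and each library left out. No protein sequences were used.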

Additional observations from a re-analysis of the deposited data

Results flagged for a closer look

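KLF11 went in opposite directions at 2 neighbouring time points. Both libraries were above both 0 h libraries at 1.5 h (log2 fold change 0.52, edgeR adjusted p 0.00704), and both were under them at 3 h (−0.93, edgeR adjusted p 1.81e-05). The difference between the 2 times was tested directly and was −1.46 (SE 0.11, edgeR adjusted p 5.47e-07). Both comparisons use the same 0 h libraries, and exons of KLF11 overlap those of AC104794.4 on the opposite strand. The time points had 2 libraries each, too few to single out a library that lies apart.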

How the results depend on the processing

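The 10 KLF genes gave 105 single values, of which 88 were called, and 62 of these kept direction and call in all 28 other fits. Of the 2936 alternative values 126 lost the call, 64 of them with a library left out, 10 gained it and 28 changed sign. The called values that changed sign were both of KLF7 with counts from TPM scaled by length, −0.077 at 1.5 h and −0.46 at 3 h. Sign changes of values that were not called were as follows. With the GC trend removed, alone or with the replicate block, the 0.5 h values were 0.040 and 0.040 for KLF1, −0.035 and −0.035 for KLF10, and 0.42 and 0.43 for KLF2, and the 1.5 h values of KLF13 were 0.040 and 0.040. With total counts they were −0.14 and −0.051 for KLF3 at 3 and 72 h and −0.23 for KLF4 at 3 h. With counts from TPM they were −0.025 for KLF3 at 72 h, −0.090 for KLF5 and −0.31 for KLF7 at 0.5 h. For KLF3 at 48 h DESeq2 gave 0.028, its size factors in edgeR 0.028 and the stricter filter (10 counts or more in each library) 0.013. With 1 library left out the 0.5 h values ran from −0.0068 to 0.17 for KLF10, from −0.15 to 0.046 for KLF11, from −0.31 to 0.25 for KLF2 and from −0.16 to 0.64 for KLF7. Likewise KLF4 at 3 h ran from −0.22 to 0.29 and KLF3 at 48 h from −0.12 to 0.11. The cause was not tested.

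Counts of called members moved as follows. With a change of over 1.5-fold asked for, 4 of the 10 were called at 1.5 h (8 in the report), 3 in the step to 1.5 h (6), 5 in that to 6 h (10) and 0 in that to 48 h (3). With only the 2 time points fitted, 4 were called at 1.5 h. Leaving out 1 library gave 0 to 2 called members at 0.5 h (2 without 0 h replicate 1), 5 to 8 at 1.5 h, 3 to 7 in the step to 1.5 h and 1 to 4 in that to 48 h (1 without 48 h replicate 1). The cause was not tested beyond the smaller number of libraries. Where a group was left with 1 library, that library was assumed to vary like the others.

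The replicate numbers were left out of the main fit, although same-numbered libraries tended to deviate alike. Their deviations correlated at over 0.1 in 24 of the 28 pairs of time points (median 0.27, from −0.30 to 0.60). With the replicate block as a term 0 of the single calls changed, and 8 members were called at 1.5 h. Depth limited KLF2, KLF4, KLF5 and KLF7 most, with 12 to 35 reads per library at 0 h.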
